A study of Mus musculus with 12 samples.

Results

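The genes described here are Cd38, Bst1, Nt5e, Entpd1 and Nampt, enzymes that make or break down NAD and nucleotides, measured as RNA in 12 libraries of mouse HoxB8 cells. They were chosen by symbol as 5 of the 24411 genes of the deposited count table, with earlier results of these data known. Per the labels, HoxB8 cells are immortalised bone marrow cells kept growing in estrogen, and all libraries were made 24 h after estrogen was taken away. Every population carried a pMIG and a pMICH vector. The 4 groups of 3 libraries were Asxl1-MT2/T618I (pMIG with Asxl1-MT2, a truncated Asxl1, and pMICH with the CSF3R T618I mutation), Empty/T618I (empty pMIG, CSF3R T618I), Asxl1-MT2/Empty (Asxl1-MT2, empty pMICH) and Empty/Empty (both vectors empty). Both constructs were added by vector on top of the cells' own genes in a single immortalised line, which limits each group as a model. Libraries carry the letters A to C from the table's columns. The genotype label of the third Empty/Empty sample names T618I against its title, groups follow the titles, and repeats without each of the 3 Empty/Empty libraries changed 1 call among the 5 genes (Nampt among T618I cells).

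CD38 and BST1 (CD157) are related enzymes of the cell surface that cut NAD into nicotinamide and ADP-ribose, with cyclic ADP-ribose as a further product. ENTPD1 (CD39) removes phosphates from extracellular ATP and ADP to leave AMP, and NT5E (CD73), which is tied to the membrane by a lipid anchor, turns AMP into adenosine, a signal that dampens many leukocyte responses. NAMPT works inside cells, although it is also found outside them, and is the rate-limiting enzyme that rebuilds NAD from nicotinamide. In human myeloid progenitors NAMPT has been described as raised by granulocyte colony-stimulating factor, the ligand of CSF3R.

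Library totals ran from 9341984 to 10252291 counts, and 11578 genes passed the filter on low counts, among them all 5 enzymes. Levels are CPM, counts scaled to a common library size, on library totals scaled with TMM factors. Fold changes are log2 values with their standard error (SE) from edgeR's quasi-likelihood fit over all 12 libraries, and a gene is said to rise or fall at an adjusted p under 0.05 over all genes tested. Asxl1 was at 918 to 1085 CPM in Asxl1-MT2/T618I and 1677 to 1832 CPM in Asxl1-MT2/Empty, against 116 to 167 CPM in the 6 libraries without Asxl1-MT2. Csf3r was at 966 to 1687 CPM in Asxl1-MT2/T618I and 385 to 455 CPM in Empty/T618I, against 253 to 320.2 CPM in Asxl1-MT2/Empty and 231 to 337 CPM in Empty/Empty, and the species of the CSF3R construct is not stated in the labels. Socs3, a feedback inhibitor of cytokine receptors, was at 151 to 264 CPM in the T618I groups and 10.4 to 13.8 CPM in the others, the 3 Empty/Empty libraries included. All 9 measured neutrophil lineage markers, Csf3r among them, had counts in every group, with a sum of 28379.7 to 30589 CPM in Asxl1-MT2/T618I, 17501 to 20652 CPM in Empty/T618I, 37767 to 42605 CPM in Asxl1-MT2/Empty, and 33660.2 to 42434 CPM in Empty/Empty. Mpo, an enzyme of early granules, made up much of that sum, with means of 10734, 11993, 30177 and 29715 CPM in these groups. Elane, Prtn3 and Ctsg also had lower means in both T618I groups than in the others. S100a9, a protein of maturing neutrophils, ran the other way with means of 6644, 1240.2, 394 and 381 CPM, as did S100a8. Cebpe and Itgam were lowest in Empty/T618I, with means of 267, 131, 271 and 239 CPM and of 1063, 188, 322 and 226 CPM. Whether libraries of a group are separate cultures is not stated, so the p-values measure a spread over libraries that can be technical.

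Promoter windows from RefSeq (GRCm38.p6) were at hand for Cd38, Nt5e, Nampt and Entpd1, 4 of the 5 genes, and that of Bst1 was not analysed here. The 250 bases before the RefSeq start of Cd38, the gene with 0 counts in the groups without T618I, of Nt5e, which was called in all 4 comparisons of groups, and of Nampt, which was well expressed in all groups, are shown to set their CpG content side by side. Capitals mark CpG dinucleotides, and all 3 stretches are on the plus strand, at chr5:43868559-43868808, chr9:88327359-88327608 and chr12:32820085-32820334. For these 3 genes the start of the RefSeq entry lies downstream of the first base of the GENCODE M21 gene given below, so the windows fall inside the GENCODE gene.
Cd38: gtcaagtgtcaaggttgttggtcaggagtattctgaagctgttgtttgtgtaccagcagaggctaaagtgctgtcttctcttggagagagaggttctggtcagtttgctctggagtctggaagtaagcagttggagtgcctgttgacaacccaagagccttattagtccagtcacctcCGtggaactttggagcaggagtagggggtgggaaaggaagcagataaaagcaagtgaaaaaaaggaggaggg
Nt5e: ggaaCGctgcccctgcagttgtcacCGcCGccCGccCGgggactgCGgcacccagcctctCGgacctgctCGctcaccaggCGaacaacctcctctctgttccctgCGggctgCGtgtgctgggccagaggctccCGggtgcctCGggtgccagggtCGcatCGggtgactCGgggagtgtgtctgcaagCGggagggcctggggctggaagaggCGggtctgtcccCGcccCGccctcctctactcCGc
Nampt: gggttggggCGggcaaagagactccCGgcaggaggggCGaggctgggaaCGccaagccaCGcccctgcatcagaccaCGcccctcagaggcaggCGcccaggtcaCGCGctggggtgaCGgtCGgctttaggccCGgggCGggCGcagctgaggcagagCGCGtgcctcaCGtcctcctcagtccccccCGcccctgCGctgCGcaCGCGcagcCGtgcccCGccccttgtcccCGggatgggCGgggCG
The Cd38 stretch held 1 CpG, the Nt5e stretch 21 and the Nampt stretch 27, against a median of 6 over 32851 RefSeq promoter windows of the same length. Fewer CpGs than in Cd38 were found in 7.87% of those windows, fewer than in Nt5e in 83.7% and fewer than in Nampt in 91.4%. The 2 listed starts of Entpd1 had 18 and 8 CpGs. A search of both strands for TTCNNNGAA, the letters of STAT sites, found none in the windows of Cd38, Nt5e and Nampt, and 7.02% of all windows hold it. GAGGAA, known from sites of ETS factors, was also not in them and occurs in 23.3% of all windows. GATAAG, bound by factors of the GATA family, was not in them and occurs in 6.55%, and TTNNGNAA, part of C/EBP sites, was not in them and occurs in 36.8%. GAGGAA occurred at 2 places and TTNNGNAA at 1 place in the second Entpd1 window.

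Cd38, the main NAD-consuming enzyme of the surface of many leukocytes, was counted in the T618I groups and had 0 counts in all 6 libraries without T618I. Its level was 49.5, 50.1 and 31.7 CPM in Asxl1-MT2/T618I libraries A, B and C and 6.44, 10.7 and 8.13 CPM in Empty/T618I. A count of 0 over 3 libraries allows a level of up to 0.101 CPM in Empty/Empty and 0.099 CPM in Asxl1-MT2/Empty (3 counts over the group, counting error only). Cd38 was therefore at least 83.5-fold higher in Empty/T618I than in Empty/Empty (edgeR adjusted p = 4.45e-07) and at least 441-fold higher with T618I on Asxl1-MT2, in Asxl1-MT2/T618I against Asxl1-MT2/Empty (edgeR adjusted p = 1.04e-09). Among the T618I groups it was higher with Asxl1-MT2 by 2.38 ± 0.211 on the log2 scale (edgeR adjusted p = 1.29e-06), and the groups did not overlap. With 0 counts in both groups without T618I, no fold for Asxl1-MT2 alone and no interaction can be given for Cd38. The gene entered the tests only through its T618I libraries, so that its calls against a group at 0 had to follow.

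Bst1, the relative of Cd38, had the same order of groups with T618I but a low level without it. It was at 181, 139.8 and 95.6 CPM in Asxl1-MT2/T618I and 15, 10.8 and 16.4 CPM in Empty/T618I. In Asxl1-MT2/Empty it was at 0.593, 0.0986 and 0.299 CPM, from 10 counts in all, and in Empty/Empty at 1.01, 0.795 and 1.44 CPM, from 32 counts. All 4 groups were apart from each other in their libraries. Bst1 rose with T618I by 3.69 ± 0.353 on empty pMIG (edgeR adjusted p = 3.12e-07) and by 8.66 ± 0.347 on Asxl1-MT2 (edgeR adjusted p = 3.99e-12). It rose with Asxl1-MT2 among T618I cells by 3.31 ± 0.204 (edgeR adjusted p = 3.72e-09), which is 9.89 times as many scaled counts (95% counting interval 8.95 to 11). Without T618I, Asxl1-MT2 cells had 0.306 times the scaled counts of Empty/Empty cells (95% counting interval 0.134 to 0.639), and the log2 fold change of -1.67 ± 0.753 did not pass (edgeR adjusted p = 0.418). The effect of Asxl1-MT2 on Bst1 differed between cells with and without T618I by 4.97 ± 0.776 (edgeR interaction, adjusted p = 0.000266). With at most 14 counts in a library without T618I, Bst1 entered the tests through its T618I libraries, as Cd38 did. Its calls against the groups without T618I, and the interaction, carry that limit.

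**Figure D1:**
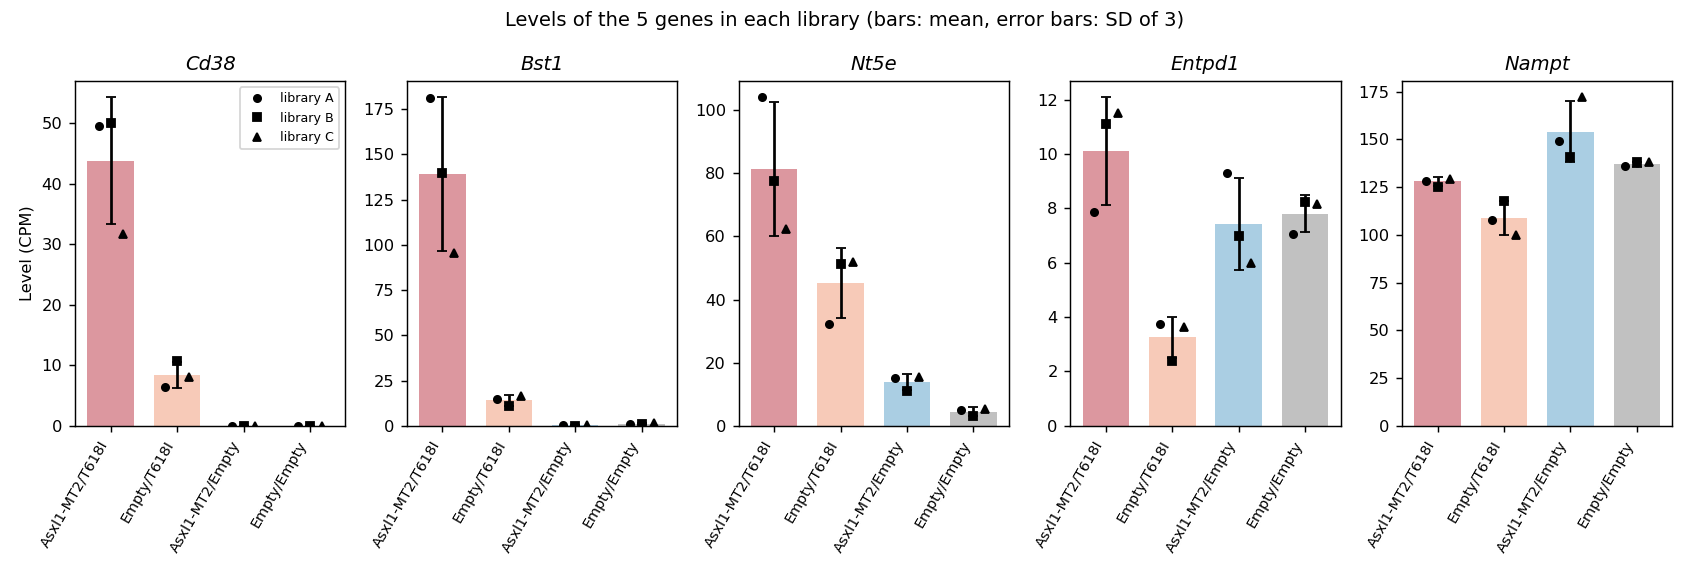
Level in CPM (y axis, linear, from 0, a scale of its own for each gene) of the 5 genes in the 4 groups, with a point for each library (circle A, square B, triangle C), bars at the group mean and error bars of 1 SD (n = 3). Cd38 and Bst1 stand highest in Asxl1-MT2/T618I, Nt5e falls into 4 steps, Entpd1 is lowest in Empty/T618I, and Nampt lies between 99.9 and 172 CPM throughout.

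Within Asxl1-MT2/T618I, library C was lowest for Cd38, Bst1 and Nt5e, and Csf3r, the gene of the transduced receptor, was at 1687, 1333 and 966 CPM in libraries A, B and C. Entpd1 and Nampt were highest in library C, at 11.5 and 129.5 CPM. Between the T618I groups Csf3r also differed, with means of 1329 CPM in Asxl1-MT2/T618I and 431 CPM in Empty/T618I. Whether these differences in Csf3r, which may include reads of the construct, have a part in the levels of the enzymes was not tested. Sums of markers of other cell types and stages differed between groups. Of the sums given here, that of monocyte and macrophage markers did not separate the groups with T618I from those without, and the others did. All 10 mast cell and basophil markers had counts in the T618I groups, with a sum of 3299.8 to 3661 CPM in Asxl1-MT2/T618I and 3244 to 5966 CPM in Empty/T618I, against 677 to 721 CPM in Asxl1-MT2/Empty, and 1092 to 1278 CPM in Empty/Empty, where Fcer1a was at 0. The 10 monocyte and macrophage markers summed to 475 to 659.8 CPM in Asxl1-MT2/T618I and 205 to 261 CPM in Empty/T618I, against 329 to 378 CPM in Asxl1-MT2/Empty, and 259 to 281 CPM in Empty/Empty. The 6 megakaryocyte and erythroid markers, with Hbb-bs and Hba-a1 at 0 in all groups, summed to 89.3 to 130.4 CPM in Asxl1-MT2/T618I and 134 to 191 CPM in Empty/T618I, against 32.1 to 35.1 CPM in Asxl1-MT2/Empty, and 44.5 to 57.2 CPM in Empty/Empty. Nearly all of this sum was 1 gene, Itga2b, with means of 112, 162, 32.4 and 49.0 CPM in these groups. Pf4, Gp1bb and Klf1 had means of at most 3.88 CPM. The 6 progenitor markers summed to 1783 to 1907 CPM in Asxl1-MT2/T618I and 1571 to 1666 CPM in Empty/T618I, against 2579.7 to 2609 CPM in Asxl1-MT2/Empty, and 2569 to 2801 CPM in Empty/Empty. Myb, with means of 447, 594, 1002 and 1062 CPM, and Hoxb8, with 571, 291, 719.6 and 660.3 CPM, made up much of this sum. Kit and Flt3 also had lower means in both T618I groups. Spi1 did not, with means of 634, 415, 407 and 386 CPM. Cd34 was lower in both Asxl1-MT2 groups, at 122, 215, 113 and 222 CPM. The part of these cell types and stages in the levels of the 5 enzymes was not tested. In bulk RNA fewer cells of a type and less RNA per cell cannot be told apart. B lymphocytes, known for CD38 and CD73, were read by 7 marker genes, of which Pax5 was at 0 in all groups, with a sum of 2.55 to 4.59 CPM in Asxl1-MT2/T618I and 1.63 to 2.67 CPM in Empty/T618I, against 22.5 to 30.3 CPM in Asxl1-MT2/Empty, and 25.8 to 30.0 CPM in Empty/Empty.

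Nt5e, which makes extracellular adenosine, rose with each construct alone. It was at 104, 77.4 and 62.4 CPM in Asxl1-MT2/T618I libraries A, B and C, 32.3, 51.1 and 51.9 CPM in Empty/T618I, 15, 11 and 15.6 CPM in Asxl1-MT2/Empty, and 5.13, 2.98 and 5.46 CPM in Empty/Empty. No library of a group reached into another group. T618I went with a rise of 3.32 ± 0.255 on empty pMIG (edgeR adjusted p = 2.26e-08) and of 2.55 ± 0.215 on Asxl1-MT2 (edgeR adjusted p = 2.99e-08). Asxl1-MT2 went with a rise of 0.85 ± 0.192 among T618I cells (edgeR adjusted p = 0.00181) and of 1.62 ± 0.281 without T618I (edgeR adjusted p = 0.00565), a call that held in all 19 alternatives. The difference between these rises, -0.76 ± 0.344, did not pass (edgeR interaction, adjusted p = 0.129), but it passed without Empty/T618I library A, without Asxl1-MT2/T618I library A and with no low-count filter (edgeR adjusted p = 0.0375, 0.0469 and 0.0404).

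Entpd1, which supplies NT5E with AMP, followed another order, with its low point in Empty/T618I. It was at 7.85, 11.1 and 11.5 CPM in Asxl1-MT2/T618I, 3.75, 2.38 and 3.65 CPM in Empty/T618I, 9.29, 7.0 and 5.99 CPM in Asxl1-MT2/Empty, and 7.04, 8.25 and 8.15 CPM in Empty/Empty. The 3 Empty/T618I libraries lay below all 9 others, while the other 3 groups overlapped. Entpd1 fell by 1.26 ± 0.228 with T618I on empty pMIG (edgeR adjusted p = 0.000318) and rose by 1.64 ± 0.223 with Asxl1-MT2 among T618I cells (edgeR adjusted p = 1.69e-05). For Asxl1-MT2 alone the change was -0.07 ± 0.204 (edgeR adjusted p = 0.981), and the effects of Asxl1-MT2 with and without T618I differed by 1.71 ± 0.303 (edgeR interaction, adjusted p = 0.000768). Asxl1-MT2/T618I and Asxl1-MT2/Empty were 0.45 ± 0.200 apart (edgeR adjusted p = 0.0723), a difference that passed without library A of either group (edgeR adjusted p = 0.0259 without that of Asxl1-MT2/T618I and 0.0247 without that of Asxl1-MT2/Empty). All these levels rest on 25 to 111 counts a library.

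Nampt stayed within a narrow range in all groups. It was at 128, 125 and 129.5 CPM in Asxl1-MT2/T618I, 108, 118 and 99.9 CPM in Empty/T618I, 149, 141 and 172 CPM in Asxl1-MT2/Empty, and 136, 138 and 138 CPM in Empty/Empty. The groups did not overlap, with Asxl1-MT2/Empty highest and Empty/T618I lowest. With T618I it fell by 0.34 ± 0.0843 on empty pMIG (edgeR adjusted p = 0.00495) and fell by 0.27 ± 0.0838 on Asxl1-MT2 (edgeR adjusted p = 0.0132). The second of these falls did not pass without Asxl1-MT2/T618I library B or Asxl1-MT2/Empty library C (edgeR adjusted p = 0.0624 and 0.0701). Among T618I cells it was higher with Asxl1-MT2 by 0.23 ± 0.0845 (edgeR adjusted p = 0.0348), a call lost when any of 7 libraries was left out (the 3 of Asxl1-MT2/T618I, Empty/T618I A and C, Empty/Empty B and C; edgeR adjusted p up to 0.224), on plain library totals (0.11, edgeR adjusted p = 0.318), with no low-count filter (0.22, edgeR adjusted p = 0.0636) and without the letter C libraries (0.13, edgeR adjusted p = 0.16). For Asxl1-MT2 alone (0.17 ± 0.0835) and for the interaction (0.07 ± 0.119) Nampt did not pass (edgeR adjusted p = 0.503 and 0.745).

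**Figure D2:**
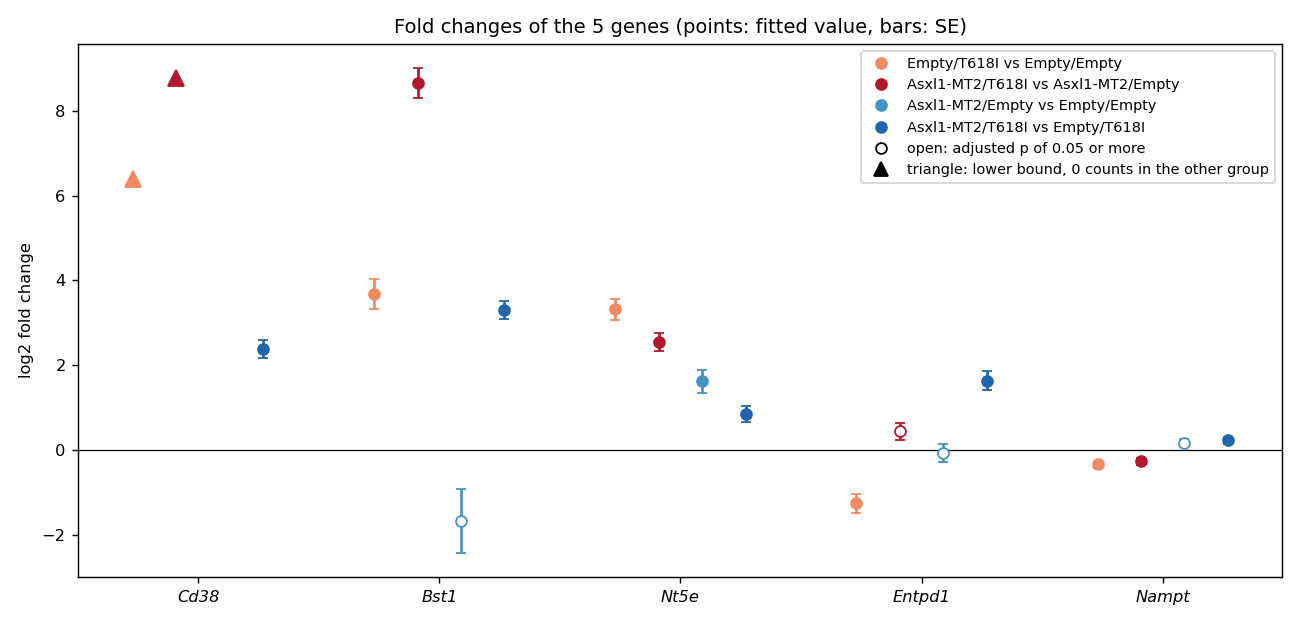
Log2 fold changes (y axis) of the 5 genes in 4 comparisons, given by colour, with bars of 1 SE, filled points at an edgeR adjusted p under 0.05 and triangles for lower bounds against groups with 0 counts. The T618I comparisons lie far above 0 for Cd38, Bst1 and Nt5e and below 0 for Nampt, while Entpd1 lies at -1.26 for T618I alone and at 1.64 for Asxl1-MT2 among T618I cells.

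By comparison, 3 of the 5 genes rose and 2 fell in Empty/T618I against Empty/Empty, where 33.5% of all genes tested were called, 17.6% higher and 15.9% lower. In Asxl1-MT2/Empty against Empty/Empty 1 rose, Nt5e, beside 1.86% of all genes called, 1.24% higher and 0.622% lower. That share stands for 215 genes, a count that ran from 60 with Asxl1-MT2/Empty library A left out to 386 without the letter C libraries. In Asxl1-MT2/T618I against Empty/T618I all 5 rose, beside 43.9% called and 25.4% called higher, and in Asxl1-MT2/T618I against Asxl1-MT2/Empty 3 rose and 1 fell, beside 49.8% called, 26.9% higher and 22.8% lower. The interaction called Bst1 and Entpd1, both higher, beside 19.6% of all genes called, 14.1% higher and 5.51% lower. The members were chosen with such results known, so these counts describe them and are no evidence about the enzymes as a group. The comparisons share groups of libraries and are not independent of each other.

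To compare the enzymes with each other, levels were divided by the length of each gene's merged exons in GENCODE M21, which may differ from the authors' annotation. In CPM per kb, Bst1 was at 41.8 ± 12.8, Nampt at 25.3 ± 0.454, Cd38 at 11.3 ± 2.69, Nt5e at 9.47 ± 2.47 and Entpd1 at 1.81 ± 0.354 in Asxl1-MT2/T618I (SD, n = 3). Cd38 and Nt5e overlapped there, at 8.15 to 12.9 and 7.26 to 12.1 CPM per kb. In Empty/T618I Nampt led at 21.5 ± 1.78, before Nt5e at 5.24 ± 1.29, Bst1 at 4.23 ± 0.878, Cd38 at 2.16 ± 0.550 and Entpd1 at 0.584 ± 0.136 CPM per kb. In Empty/Empty Nampt was at 27.2 ± 0.268 CPM per kb, Entpd1 at 1.40 ± 0.120, Nt5e at 0.526 ± 0.157 and Bst1 at 0.326 ± 0.0998, with Cd38 at 0. Thus Bst1 lay above Nampt in each Asxl1-MT2/T618I library (28.8 to 54.4 against 24.8 to 25.6 CPM per kb) and below it in the other 9 libraries.

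Nt5e was also set against Entpd1, the member of the step before it. The ratio of Nt5e to Entpd1, in CPM per kb within each library, was 8.63, 4.54 and 3.54 in Asxl1-MT2/T618I, 5.59, 13.9 and 9.23 in Empty/T618I, 1.05, 1.02 and 1.69 in Asxl1-MT2/Empty, and 0.473, 0.234 and 0.435 in Empty/Empty. It was above 1 in all libraries with a construct and below 1 in all 3 Empty/Empty libraries, but the Asxl1-MT2/Empty values lie close to 1, where the exon lengths used decide the side, while the T618I groups overlapped. The ratio of Bst1 to Cd38 was 4.27, 3.27 and 3.54 in Asxl1-MT2/T618I and 2.73, 1.18 and 2.36 in Empty/T618I, with no overlap. These ratios are a description of the members and were not tested. They leave out other enzymes that degrade ATP, such as Entpd3, which is given further on.

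**Figure D3:**
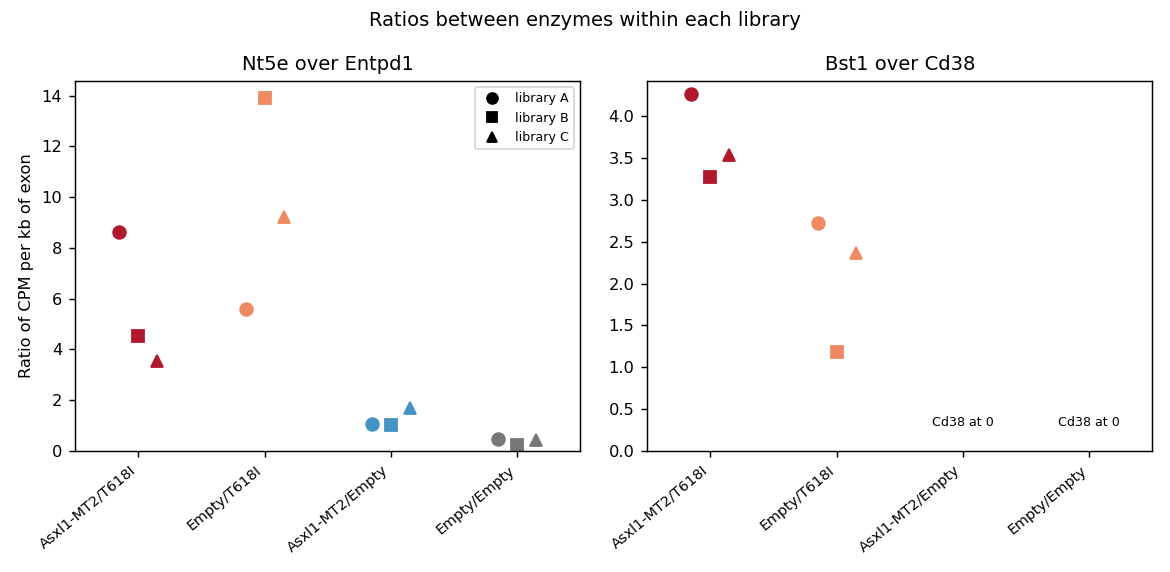
Ratio of levels in CPM per kb of exon (y axis, linear, from 0) within each library, Nt5e over Entpd1 on the left and Bst1 over Cd38 on the right, by group and with library letters as symbols. Nt5e exceeds Entpd1 in the 9 libraries with a construct and not in Empty/Empty, where the ratio is at most 0.473.

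Bst1 (ENSMUSG00000029082.17, chr5:43818885-43843986) and Cd38 (ENSMUSG00000029084.5, chr5:43868553-43912375) are neighbours on the plus strand of mouse chromosome 5, 24566 bases apart in GENCODE M21 (GRCm38, the build mm10). The 3 nearest protein-coding genes of the table on either side, picked by position after the values of both were seen, were read for comparison. Fbxl5, which encodes an iron-sensing subunit of a ubiquitin ligase and lies next to Bst1 on the minus strand, was at 254 ± 65.2 CPM in Asxl1-MT2/T618I, 85.4 ± 2.66 CPM in Empty/T618I, 31.2 ± 1.20 CPM in Asxl1-MT2/Empty, and 30.9 ± 1.92 in Empty/Empty. It rose with T618I by 1.47 ± 0.142 (edgeR adjusted p = 3.78e-07) and with Asxl1-MT2 among T618I cells by 1.57 ± 0.132 (edgeR adjusted p = 8.15e-08). Fbxl5 and Bst1 are transcribed away from each other, and their annotated start regions overlap by 2754 bases. The exons share 98 bases, 2.95% of the exon bases of Bst1, so that reads of these bases cannot be assigned without strand. Prom1, the gene of the surface protein CD133 beyond Cd38, was at 104 ± 9.84 CPM in Asxl1-MT2/T618I, 58.1 ± 2.49 CPM in Empty/T618I, 33.3 ± 4.33 CPM in Asxl1-MT2/Empty, and 31.9 ± 4.37 in Empty/Empty, with rises of 0.87 ± 0.113 and 0.84 ± 0.107 in the same comparisons (edgeR adjusted p = 1.08e-05 and 8.29e-06). Tapt1, the farthest on that side, was at 68.3 ± 3.80, 55.7 ± 5.64, 66.5 ± 3.23 and 67.4 ± 2.48 CPM in the groups in that order, lower with T618I on empty pMIG by a log2 value of -0.27 ± 0.0871 (edgeR adjusted p = 0.0218) and higher with Asxl1-MT2 among T618I cells by 0.29 ± 0.0872 (edgeR adjusted p = 0.0117). C1qtnf7 and Fgfbp1 had 0 counts in all libraries, and Cc2d2a had 21 in all. All 3 expressed neighbours were higher in Asxl1-MT2/T618I than in Empty/T618I, as Bst1 and Cd38 were, beside 25.4% of all genes tested called higher. With T618I on empty pMIG Fbxl5 and Prom1 rose and Tapt1 fell, beside 17.6% of all genes called higher and 15.9% lower. The 3 others were silent or nearly so, and nothing particular to the locus is read from these counts.

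**Figure D4:**
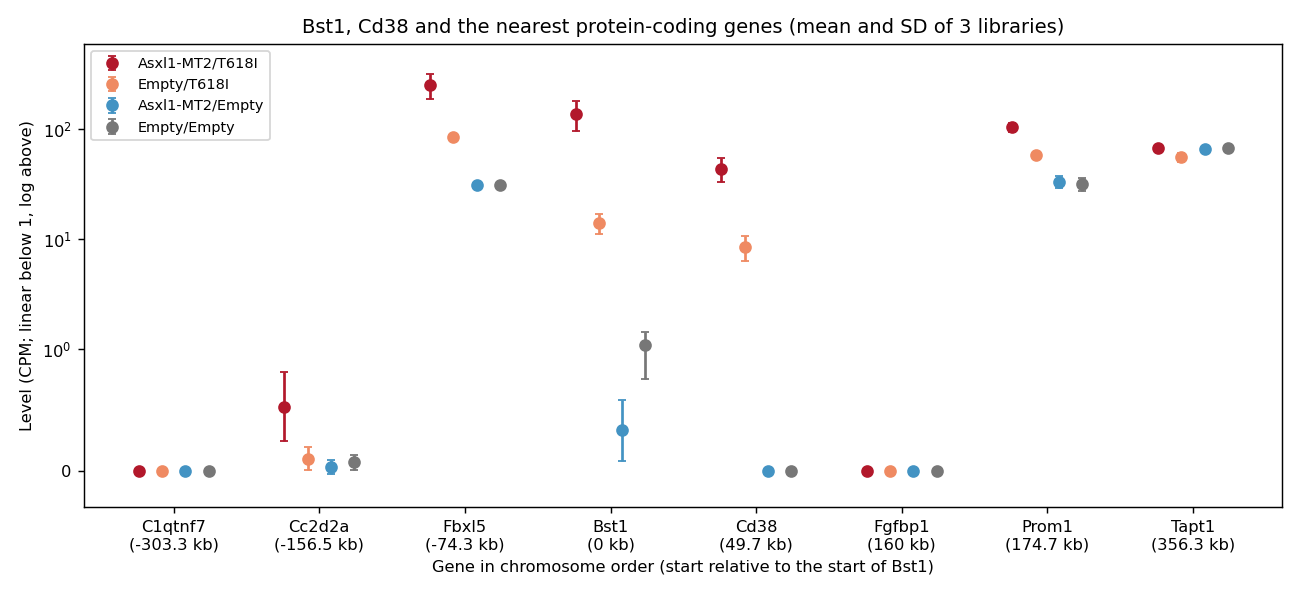
Level in CPM (y axis, linear below 1 and logarithmic above, mean and SD of 3 libraries) of Bst1, Cd38 and the 3 nearest protein-coding genes on either side, in chromosome order with the distance of each start from that of Bst1 in kb, in the 4 groups. Fbxl5 and Prom1 step down from Asxl1-MT2/T618I over Empty/T618I to the other groups like Bst1 and Cd38, but over a smaller range, while Tapt1 lies between 55.7 and 68.3 CPM.

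The other members are Nt5e on chromosome 9 (ENSMUSG00000032420.8, chr9:88327197-88372092), Nampt on chromosome 12 (ENSMUSG00000020572.8, chr12:32819545-32853349) and Entpd1 on chromosome 19 (ENSMUSG00000048120.16, chr19:40612366-40741602), all on the plus strand. For each member the 3 genes nearest to it in pattern were read as those with the smallest root mean square difference over the 12 libraries, in log2 CPM with each gene's mean taken off. Nearest to Cd38 was Spint1, a protease inhibitor of membranes, at a difference of 0.186. It was at 50.0 ± 15.5 CPM in Asxl1-MT2/T618I, 10.4 ± 3.18 in Empty/T618I and at 0 in the groups without T618I, followed by Steap4 (0.514) and Osmr (0.518). Bst1 came 16th for Cd38 among 11577 genes, at 0.812. Bst1 itself was nearest to Slfn1 (0.426), Il13ra1, a receptor chain for interleukin 13 (0.460), and Fpr1, the receptor for formyl peptides (0.473). For Nt5e the nearest were Tmem9 (0.506), Svil (0.511) and B4galnt4 (0.521), for Entpd1 Slc2a9 (0.247), Map4k2 (0.251) and Agap1 (0.258), and for Nampt 9530068E07Rik (0.0700), Asb8 (0.0747) and B3gnt2 (0.0757). Small differences for Nampt go with its narrow range.

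Around these enzymes, 3 lists of other genes of the same pathways were read, chosen like the members with earlier results known. Of 13 tested genes (of 22 listed) of NAD synthesis and of the balance of NAD forms, 1 rose and 5 fell in Empty/T618I against Empty/Empty, with a median of 0.08 on the log2 scale against 0.00 over all genes. Haao, an enzyme of the route from tryptophan, was at 3.82 ± 0.710 CPM in Empty/T618I and 11.7 ± 3.06 CPM in Empty/Empty and fell by 1.61 ± 0.219. Nmnat3, which joins NMN and ATP to NAD in mitochondria, fell by 0.58 ± 0.141, and the mitochondrial transhydrogenase Nnt fell by 0.43 ± 0.0738. Nadsyn1, the NAD synthetase, fell by 0.48 ± 0.132, a call lost without Empty/T618I library B (edgeR adjusted p = 0.0523). None of the 13 was called for Asxl1-MT2 alone (edgeR; 0 also at an unadjusted p under 0.05, and 0 by DESeq2). In Asxl1-MT2/T618I against Empty/T618I 4 rose and 2 fell (median 0.01 against 0.01), among them Haao at 15.5 ± 1.11 against 3.82 ± 0.710 CPM, Nadk, which turns NAD into NADP, at 355 ± 43.5 against 221 ± 9.63 CPM, and Nmrk1, a nicotinamide riboside kinase, at 8.26 ± 0.363 against 5.26 ± 1.23 CPM. Nmnat3 fell by 0.47 ± 0.154, which did not pass without Asxl1-MT2/T618I library B or Empty/T618I library C (edgeR adjusted p = 0.091 and 0.0531). In Asxl1-MT2/T618I against Asxl1-MT2/Empty 4 rose and 4 fell (median -0.10 against -0.02), with Nadk higher by 1.04 ± 0.0863, Nmrk1 by 0.82 ± 0.186, and Nmnat3 and Nnt at -1.25 ± 0.146 and -0.54 ± 0.0743.

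Of 26 tested genes (of 35 listed) for NAD consumers and channels opened by NAD-derived messengers, 4 rose and 4 fell in Empty/T618I against Empty/Empty (median -0.01 against 0.00). Trpm2, the calcium channel opened by ADP-ribose, was at 19.0 ± 5.81 CPM in Empty/T618I and 5.12 ± 0.818 CPM in Empty/Empty, and Parp14, an ADP-ribosyltransferase, at 16.8 ± 2.81 and 6.64 ± 0.914 CPM. Parp16 and the endolysosomal channel Tpcn1 fell by 1.13 ± 0.203 and 0.93 ± 0.0851. For Asxl1-MT2 alone 1 rose, Parp14, by 0.97 ± 0.216, a call lost without any of 5 libraries (the 3 of Empty/Empty, Asxl1-MT2/Empty A and C; edgeR adjusted p up to 0.127). In Asxl1-MT2/T618I against Empty/T618I 13 rose and 3 fell (median 0.31 against 0.01). Trpm2 was at 43.1 ± 8.33 against 19.0 ± 5.81 CPM there, Parp14 at 34.3 ± 7.57 against 16.8 ± 2.81, Tpcn2, the relative of Tpcn1, at 55.5 ± 8.54 against 27.2 ± 3.67, and Parp4 at 56.6 ± 9.08 against 32.2 ± 4.10 CPM. Against Asxl1-MT2/Empty 11 rose and 7 fell (median 0.21 against -0.02), Trpm2 by 3.84 ± 0.231 (43.1 ± 8.33 against 3.0 ± 0.496 CPM), Parp14 by 1.40 ± 0.186, Parp10 by 1.29 ± 0.126 and Tpcn2 by 1.22 ± 0.136. The group means stood in the same order for Trpm2 as for Bst1, one of the enzymes that release ADP-ribose. Other genes, such as Steap4 and Slfn1, had that order too, and a link between Trpm2 and Bst1 was not tested.

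Of 35 tested genes (of 55 listed) that handle nucleotides and adenosine, inside or outside cells, 17 rose and 7 fell in Empty/T618I against Empty/Empty (median 0.20 against 0.00). Entpd3, an ATP-degrading relative of Entpd1, had 571 counts in Empty/T618I and 2 in Empty/Empty, a ratio of 278 (95% counting interval 76.7 to 2303). Adora3, an adenosine receptor, was at 16.5 ± 4.70 and 0.338 ± 0.121 CPM, P2ry1, a receptor for ADP, at 47.1 ± 10.7 and 4.47 ± 1.01, and P2ry6, a receptor for UDP, at 3.5 ± 0.905 and 0.669 ± 0.453 CPM. For Asxl1-MT2 alone 3 rose and 1 fell (median -0.03 against 0.00). Nt5c3b, a nucleotidase of the cytosol, was at 32.2 ± 0.701 CPM in Asxl1-MT2/Empty, and 20.7 ± 2.10 CPM in Empty/Empty. Ada, which breaks adenosine down, was at 66.5 ± 8.13 and 44.7 ± 1.76 CPM, and Acpp, an acid phosphatase that can also act on AMP outside cells, at 58.8 ± 4.73 and 39.9 ± 4.56 CPM. P2ry14, a receptor for UDP-glucose, fell by 1.31 ± 0.261. Ada, Acpp and P2ry14 did not pass without library A of either Empty/Empty or Asxl1-MT2/Empty, nor did Acpp and P2ry14 without Asxl1-MT2/Empty library B or Acpp without Empty/Empty library B (edgeR adjusted p up to 0.0886, 0.133 and 0.0865 for Ada, Acpp and P2ry14).

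In Asxl1-MT2/T618I against Empty/T618I 16 of the 35 rose and 10 fell (median 0.25 against 0.01). P2ry6 was at 27.1 ± 5.74 against 3.5 ± 0.905 CPM, Acpp at 146 ± 15.4 against 30.4 ± 5.05, Entpd3 at 87.5 ± 24.0 against 18.8 ± 1.92, and P2ry13, a further ADP receptor, at 55.1 ± 14.3 against 14.4 ± 1.06 CPM. In Asxl1-MT2/T618I against Asxl1-MT2/Empty 19 rose and 3 fell (median 0.42 against -0.02). Entpd3 had 2505 counts in Asxl1-MT2/T618I and 3 in Asxl1-MT2/Empty, a ratio of 881 (95% counting interval 301 to 4276). P2ry6 rose by 6.30 ± 0.341, P2ry13 by 5.23 ± 0.244 and Adora3 by 5.13 ± 0.363. The share of all genes called in these comparisons stands above with the members, and from the shares of the lists nothing particular to them is read. Genes with few or 0 counts without T618I, such as Entpd3 and Adora3, passed the low-count filter through their T618I libraries, as Cd38 did.

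**Figure D5:**
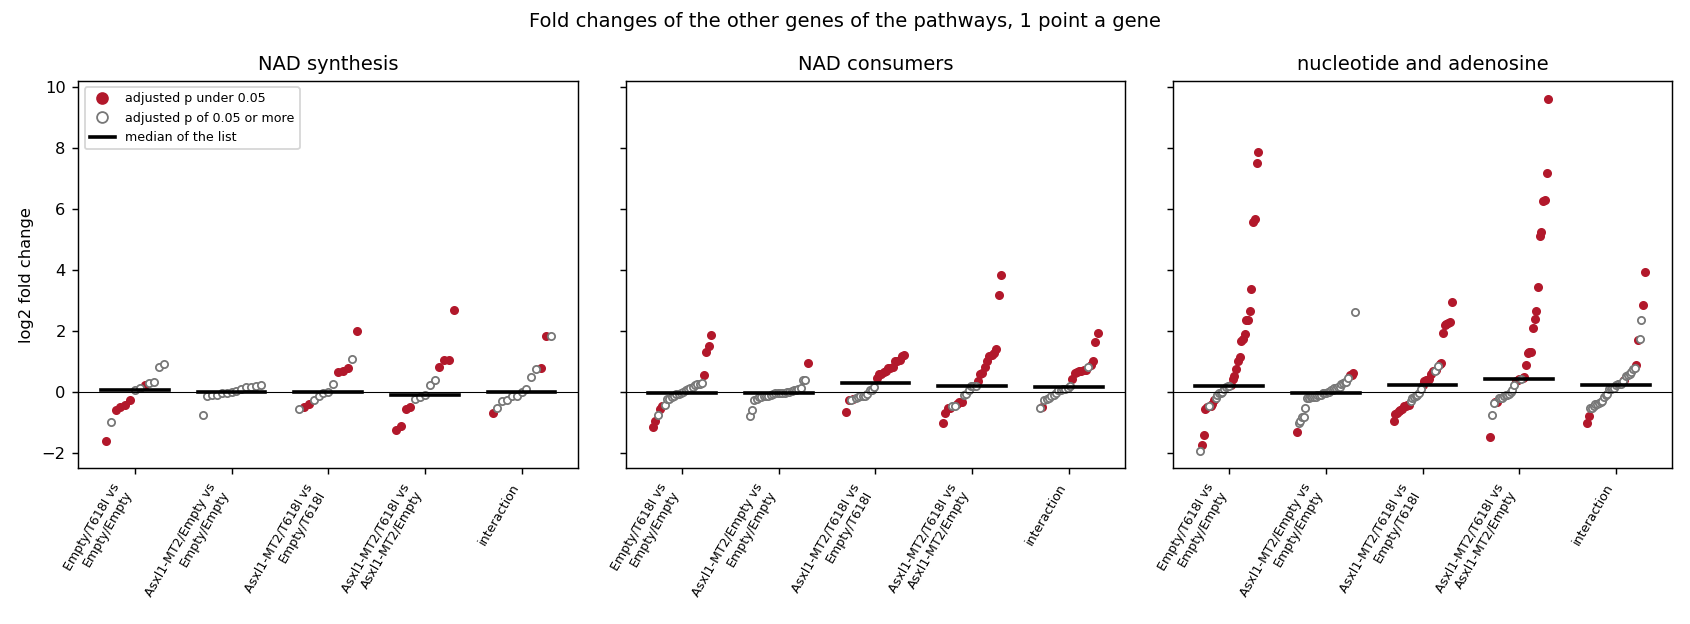
Log2 fold change (y axis) of each tested gene of the 3 pathway lists, sorted within each of 5 comparisons (x axis), red where the edgeR adjusted p was under 0.05 and open where it was not, with the list's median as a bar. The nucleotide and adenosine list reaches from under 0 to a fitted 9.61 for Entpd3, while the medians of the NAD synthesis list lie between -0.10 and 0.08.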

How the data were processed

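RNA of 12 mouse HoxB8 libraries was analysed from 1 table of read counts per gene symbol deposited by the authors. The submitters' processing notes name the build mm10 and, as tools, DESeq2, STAR and Trimmomatic. Their versions, the counting tool, its annotation and its strand setting are not given in the sources used here. Column names gave the group and a letter A to C, not the numbers of the sample titles, so letters only name libraries. Members and gene lists were chosen with earlier results of these data known.

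The counts, as deposited, were tested with edgeR 4.0.16 (R 4.3.3, limma 3.58.1): quasi-likelihood fit of 4 group means over all 12 libraries, TMM scaling, filterByExpr (11578 of 24411 genes), and Benjamini-Hochberg adjustment over all genes tested, with a gene called at an adjusted p under 0.05. The interaction is the effect of Asxl1-MT2 with T618I minus that without. CPM values are counts over the library's table total times its TMM factor, scaled to a total of 1e6. Where a group had 0 counts, folds are lower bounds against 3 counts over the group. Counting intervals are 95% and cover counting error only. Likeness used log2 CPM with a prior count of 2. From each pathway list up to 4 genes per comparison were named, by the largest change among called genes with a mean of at least 5 CPM over the 12 libraries. Library pairs within a group differed by 3.23 to 13.5 times the sampling noise (chi-square per degree of freedom), so none was a copy. Alternatives were DESeq2 1.42.0, other scalings, no low-count filter, a block for the letter, and leaving out libraries. Some single marker genes are not reported here.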

Additional observations from a re-analysis of the deposited data

Results flagged for a closer look

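By the interaction in edgeR's quasi-likelihood fit, the effect of Asxl1-MT2 differed between cells with and without T618I for the 13 genes given here. They are the called members and up to 4 called genes of each list, so their number follows from that rule. Other genes named above also passed, such as Nt5c3b, Parp4, Fbxl5 and Prom1 (edgeR interaction, adjusted p = 0.0016, 0.00778, 5.42e-05 and 0.00233). Over all genes tested, the interaction called 19.6%. The surface enzymes among the 13 were Bst1, with a difference of 4.97 ± 0.776 on the log2 scale (adjusted p = 0.000266), and Entpd1, with 1.71 ± 0.303 (adjusted p = 0.000768). The Bst1 value rests on 10 counts in Asxl1-MT2/Empty and 32 in Empty/Empty, and Bst1 passed the low-count filter through its T618I libraries.

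Of the NAD synthesis genes, Haao differed by 1.84 ± 0.287, Nadk by 0.81 ± 0.121 and Nmnat3 by -0.67 ± 0.204, the last a call that failed when 1 of 6 libraries was dropped (library B of Asxl1-MT2/T618I, C of Empty/T618I, B or C of Asxl1-MT2/Empty, A or B of Empty/Empty), with an edgeR adjusted p of at most 0.0826. Of the NAD consumers and channels, Trpm2 differed by 1.95 ± 0.337, Parp10 by 1.01 ± 0.179, Tpcn2 by 0.90 ± 0.197 and Parp3 by 0.72 ± 0.207. The Parp3 call failed when 1 of 5 libraries was dropped (library A or B of Asxl1-MT2/T618I, C of Asxl1-MT2/Empty, A or B of Empty/Empty), with an edgeR adjusted p of at most 0.0549. Of the nucleotide and adenosine genes, P2ry6 differed by 3.94 ± 0.680, P2ry13 by 2.87 ± 0.387, Acpp by 1.70 ± 0.172 and P2ry1 by -1.0 ± 0.263. P2ry6 had 10 counts in Asxl1-MT2/Empty and 20 in Empty/Empty. No cause of these differences was tested.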

How the results depend on the processing

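Of 470 counts of called genes under alternatives, 454 stayed within 1.5 times the reported count and 16 did not. All 16 concern Asxl1-MT2/Empty against Empty/Empty. There 215 genes were called, against 359 with no low-count filter, 386 without the letter C libraries, and 60 to 276 with 1 library left out (60 without Asxl1-MT2/Empty A). NAD consumers called were 1, against 0 without the letter C libraries and 0 to 1 with 1 library left out, and nucleotide and adenosine genes were 4, against 1 to 6. Of 1485 single fold changes 1433 kept direction and call, 43 lost the call, 5 gained it and 4 reversed. The reversed values were not called in any setting: the interaction for Nampt, 0.07, was -0.0394 on plain library totals and -0.00956 to 0.151 with 1 library left out, and Entpd1 for Asxl1-MT2 alone, -0.07, was 0.077 without the letter C libraries and -0.266 to 0.0598 with 1 library left out. The cause was not tested. Same-letter libraries deviated together in part: r was over 0.1 in 7 of 18 pairs, and 6 of 12 libraries were closest to their own letter. Outside Asxl1-MT2/T618I, r was 0.147 to 0.22 for the letter A and letter C pairs and -0.226 to -0.116 between A and C. The B pairs lay from -0.0606 to 0.0481. The letters were not taken as pairs. With the letter as a replicate block, 4285, 317, 5444, 6114 and 2851 genes were called in the 4 comparisons and the interaction, and no call of the 5 enzymes changed. Depth limits Bst1 and Cd38 without T618I, where levels under about 0.1 CPM cannot be told from 0.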
